A study of Mus musculus with 19 samples.

Results

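The genes described here are 36 interferon-induced genes, whose transcription type I interferon switches on, followed in total RNA of mouse plantaris tendon. They were chosen by name, with earlier results of these data known, from the 24972 genes listed in the deposited table. All 36 are listed and passed the filter on low values. By role they comprise 17 antiviral effectors (Ifit1, Ifit2, Ifit3, Ifit3b, Oas1a, Oas2, Oas3, Oasl1, Oasl2, Mx1, Mx2, Rsad2, Cmpk2, Bst2, Eif2ak2, Zbp1 and Ifi44) and 3 cytosolic RNA sensors (Ifih1, Ddx58 and Dhx58). A further 6 belong to the ISG15 system or are ubiquitin ligases (Isg15, Usp18, Herc6, Trim25, Trim30a and Dtx3l), 2 are PARP proteins (Parp9 and Parp14), 3 are Schlafen proteins (Slfn1, Slfn5 and Slfn8), and 5 are others (Ifi35, Xaf1, Rtp4, Ifi27l2a and Stat2). The study had 19 libraries in 5 groups. The 3 control libraries came from Scx+ mice that received neither tamoxifen nor the growth stimulus. The other 16 came from tamoxifen-treated mice, with 4 libraries each of Scx+ and Scx- mice at day 7 and at day 14 of a growth stimulus. Scx- mice carried a targeted deletion of scleraxis, a transcription factor of tendon cells. The allele, the driver of recombination, the strain, sex and age, and the kind of stimulus are not given in the sources used here. No unstimulated Scx- group was analysed, so the genotype comparisons are between stimulated, tamoxifen-treated tendons.

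Type I interferons are cytokines made by cells that sense nucleic acids of viruses or of damaged cells. They bind the receptor formed by IFNAR1 and IFNAR2, whose kinases JAK1 and TYK2 phosphorylate signal transducers such as STAT2. With IRF9 these form the complex ISGF3, which binds the interferon-stimulated response element in the promoters of the genes it induces. The products include proteins that bind viral RNA, block translation or hold virions at the membrane, as well as feedback regulators such as USP18. In tendon, resident and infiltrating macrophages and the tendon fibroblasts themselves can all respond to interferon.

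The core of the response element, GAAA followed by any 2 bases and GAAA, was searched on both strands in the RefSeq promoters (assembly GRCm38.p6), windows of 300 bases of which 250 lie before the gene start. Promoters of 26 of the 36 genes were in the table, and 15 of them (57.7%) held the core. Among the tested genes with a promoter, 486 of 12771 (3.81%) held it, and among all promoters 1131 of 32851 (3.44%). A match is a description of the letters and not a measured site. The promoters below belong to the 6 genes with the smallest p between genotypes at day 7 among those with a core wholly before the start. They show how the core recurs and where it lies; the 250 bases before the start are printed 5′ to 3′ on the gene's strand, with every core in capitals (TTTC, any 2 bases and TTTC are the same core on the other strand, and cores may overlap). The Ifit genes come first and the order is not that of p. The windows lie at chr19:34583279-34583528 for Ifit3 (plus strand), chr19:34607707-34607956 for Ifit3b (plus), chr19:34640639-34640888 for Ifit1 (plus), chr8:71537473-71537722 for Bst2 (minus), chr5:120907526-120907775 for Oas1a (minus) and chr7:104465194-104465443 for Trim30a (minus).
Ifit3: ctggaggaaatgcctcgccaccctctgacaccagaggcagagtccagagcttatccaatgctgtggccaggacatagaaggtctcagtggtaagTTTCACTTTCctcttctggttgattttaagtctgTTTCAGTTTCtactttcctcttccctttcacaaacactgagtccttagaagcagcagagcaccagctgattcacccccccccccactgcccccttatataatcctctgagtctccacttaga
Ifit3b: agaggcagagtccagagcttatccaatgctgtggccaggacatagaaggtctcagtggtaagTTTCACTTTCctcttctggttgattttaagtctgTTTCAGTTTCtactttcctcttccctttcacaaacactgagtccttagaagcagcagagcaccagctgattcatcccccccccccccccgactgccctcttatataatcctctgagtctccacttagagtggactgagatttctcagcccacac
Ifit1: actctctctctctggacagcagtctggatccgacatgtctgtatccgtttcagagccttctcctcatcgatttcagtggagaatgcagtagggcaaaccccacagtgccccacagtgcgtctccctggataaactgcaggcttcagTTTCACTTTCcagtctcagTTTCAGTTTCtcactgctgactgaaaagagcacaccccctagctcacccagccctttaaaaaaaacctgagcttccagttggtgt
Bst2: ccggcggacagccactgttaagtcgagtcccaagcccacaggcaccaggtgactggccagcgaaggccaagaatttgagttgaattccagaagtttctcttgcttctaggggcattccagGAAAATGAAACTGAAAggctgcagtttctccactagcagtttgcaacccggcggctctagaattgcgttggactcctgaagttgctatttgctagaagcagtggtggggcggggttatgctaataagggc
Oas1a: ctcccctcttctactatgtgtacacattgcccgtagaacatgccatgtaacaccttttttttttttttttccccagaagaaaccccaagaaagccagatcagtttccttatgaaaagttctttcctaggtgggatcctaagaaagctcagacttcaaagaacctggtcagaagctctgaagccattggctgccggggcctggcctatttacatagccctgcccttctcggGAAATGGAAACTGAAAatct
Trim30a: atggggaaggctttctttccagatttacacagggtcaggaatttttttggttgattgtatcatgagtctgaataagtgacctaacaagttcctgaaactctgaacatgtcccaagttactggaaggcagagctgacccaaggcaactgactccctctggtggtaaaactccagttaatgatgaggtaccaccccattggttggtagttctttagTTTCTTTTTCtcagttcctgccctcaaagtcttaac
In Ifit3, Ifit3b and Ifit1 the same pair of words, TTTCACTTTC and then TTTCAGTTTC, recurs. Their first bases lie 156 and 122 bases before the start in Ifit3, 188 and 154 in Ifit3b, and 104 and 85 in Ifit1. In Bst2 and Oas1a the cores overlap, beginning 130 and 124 bases before the start in Bst2 and 20 and 14 in Oas1a. Genes with and without the core in this window had similar ranges of genotype difference at day 7: the median log2 difference was 1.46 over the 15 with it (0.77 to 2.94) and 1.65 over the 11 without it (0.84 to 2.52).

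All levels below are the authors' scaled signals, rescaled by medians of ratios; they are not corrected for gene length, so a level is compared between groups and not between genes. Scx itself read 7993, 5573, 3272 and 2755 in the Scx+ libraries at day 7 and 17.1, 8.94, 8.86 and 5.67 in the Scx- libraries, and at day 14 5060.2, 3723, 5012 and 2082 against 5.81, 2.48, 4.87 and 1.65. The deposited signals summed to 36577650 to 79768350 per library. The tissue is labelled plantaris tendon, but 22 skeletal muscle fibre markers took 25.6% to 30.8% of the signal in the controls, where 12 tendon markers took 0.384% to 1.16%. In the other groups muscle markers took 0.0358% to 19.6% and tendon markers 1.47% to 10.5%. Nothing in the labels says that replicates came from different animals, and every p therefore measures the spread between these samples alone. In whole tissue, fewer cells of a type and less RNA per cell cannot be told apart.

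All 36 genes had their highest group mean in Scx- tendon at day 7. Their summed signal, in ppm of the library's total signal, was 289 ± 64.3 in controls (SD, n = 3), 931 ± 288 in Scx+ at day 7, 2808 ± 1181 in Scx- at day 7, 638 ± 120 in Scx+ at day 14 and 491 ± 143 in Scx- at day 14 (n = 4 each). The Scx- libraries at day 7 ranged from 1742 to 4470 and lay above every other library; those of Scx+ at day 7 ranged from 655 to 1332. For 30 of the 36 genes the group means had the same order: Scx- day 7, Scx+ day 7, Scx+ day 14, Scx- day 14, control. The control mean was the lowest for 32 genes. The exceptions were Ifit3b, Cmpk2 and Ifi35, lowest in Scx- at day 14, and Ifi27l2a, lowest in Scx+ at day 14. The neighbouring Scx+ and Scx- day 14 means did not pass the test for any gene, as given below. Nor did the Scx+ means of day 7 and day 14, although 8 genes passed as lower at day 14 in the authors' deposited table. For Ifit2 and Ifit3, counted among the 30, the fitted log2 difference between those Scx+ groups ran the other way. The share of all tested genes with this order is not given here.

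**Figure D1:**
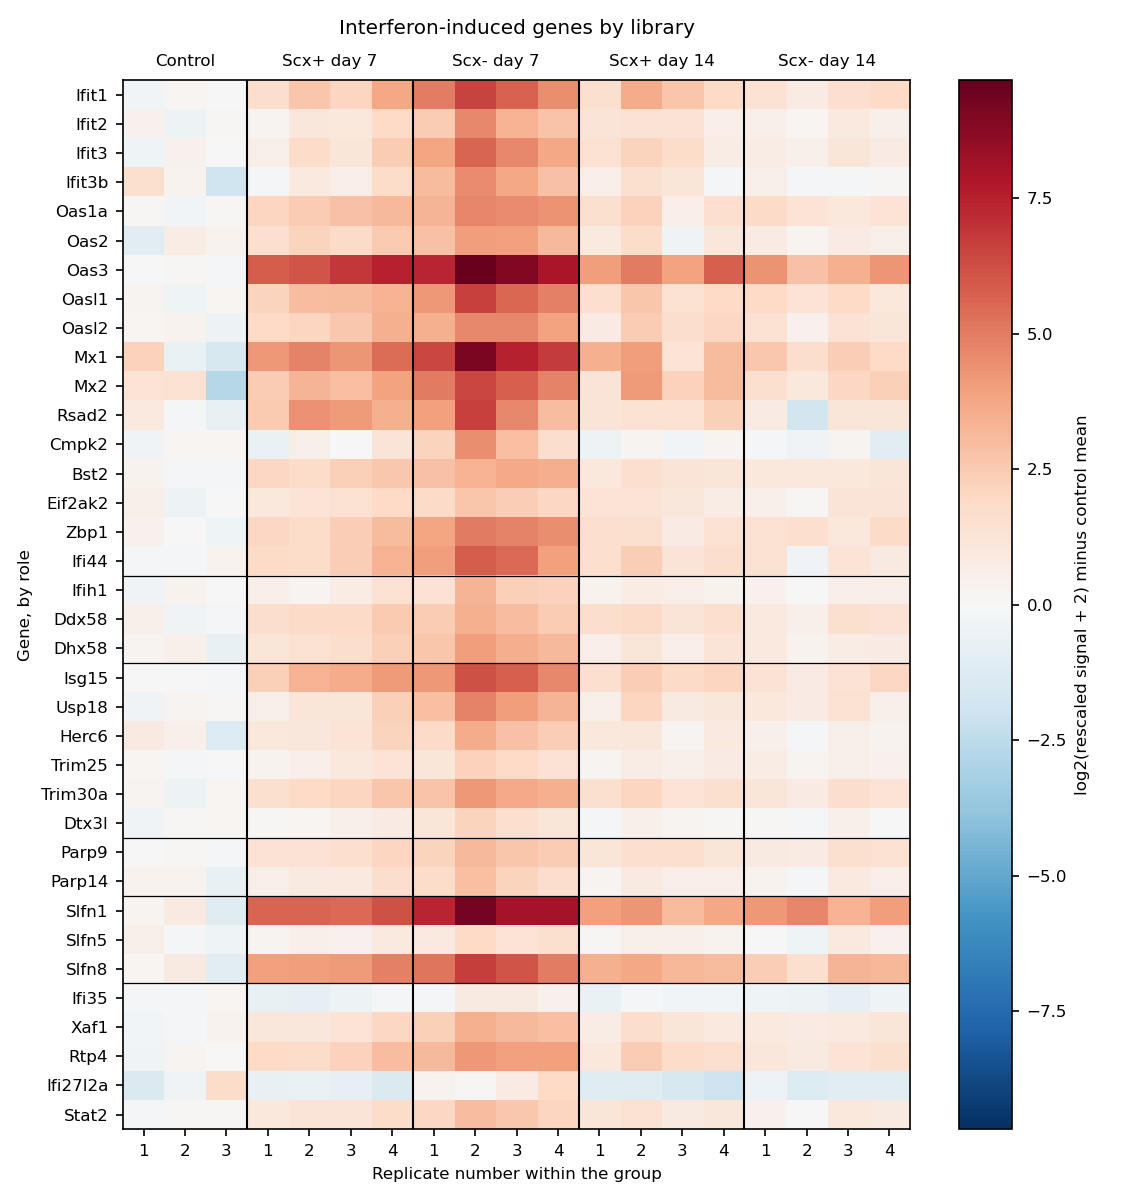
Heat map of the 36 genes (rows, by role, separated by lines) in the 19 libraries (columns, by group). Colour is log2(rescaled signal + 2) less the mean of the 3 controls. The 4 Scx- day 7 columns are the darkest in nearly every row, and Ifi35 and Ifi27l2a stay near or below the control level outside that group.

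At day 7, interferon-induced genes were higher in Scx- than in Scx+ tendon. Of the 36 genes, 21 were higher and 0 lower at an adjusted p under 0.05, where 0.433% of all 16619 tested genes were higher. The test was limma on log2(rescaled signal + 2) with all 5 groups in a single fit and Benjamini-Hochberg adjustment over all tested genes; differences below are on that log2 scale, with the SE of the fit and 4 libraries in each group. The log2 difference was above 0 for all 36, with a median of 1.61, against 0.018 over all tested genes. In 27 of the 36 every Scx- library lay above every Scx+ library, which held for 3.71% of tested genes. In the authors' deposited table, 34 of the 36 were higher at an adjusted p under 0.05, where 2.39% of its genes were. Only Rsad2 and Trim25 did not pass there. Below, passing refers to limma unless the deposited table is named.

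Among the antiviral effectors 10 of 17 were higher, with a median log2 difference of 2.24. The IFIT proteins bind viral RNA that lacks the host's cap marks. Ifit3 read 539.8, 1203, 804 and 2005 in the 4 Scx+ libraries and 5049, 17546, 8848 and 4686 in the 4 Scx- libraries. Every Scx- library was more than the highest Scx+ library, and the log2 difference was 2.94 ± 0.42 (7.68-fold, limma adjusted p = 0.00239). Ifit1 read 326, 621, 426 and 1321 in Scx+ and 3016, 9321, 5276 and 2259.6 in Scx-, again with no overlap, a log2 difference of 2.88 ± 0.49 (limma adjusted p = 0.00743). Ifit2 (2.21 ± 0.40) and Ifit3b (2.77 ± 0.60) were also higher. Ifit3 and Ifit3b are near-identical neighbours, so the split of reads between them is uncertain.

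Zbp1, a sensor of Z-form nucleic acids that can start necroptosis, had the smallest p of the 36. It read 332, 287, 424 and 687 in Scx+ and 1206, 2771, 2284 and 1865 in Scx-, where the lowest Scx- library stood well above the highest Scx+ library. The log2 difference was 2.24 ± 0.31 (4.74-fold, limma adjusted p = 0.00187). Bst2, or tetherin, holds budding virions at the cell surface. It read 2428, 2013, 3009 and 3539.6 in Scx+ and 4282, 6141, 7625 and 6639 in Scx-, a smaller but tight difference of 1.17 ± 0.20 (2.25-fold, limma adjusted p = 0.00718). The other effectors that were higher were Cmpk2, a mitochondrial nucleotide kinase (2.52 ± 0.50), Ifi44 (2.50 ± 0.48), Oasl1 (2.42 ± 0.44) and Oas1a (1.63 ± 0.34). Oas1a encodes an OAS enzyme, of the kind that makes the second messenger that turns on RNase L.

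The other 7 effectors did not pass in limma, although all but Rsad2 passed in the authors' deposited table. Mx1, a GTPase that traps viral ribonucleoproteins, had one of the largest differences and also one of the largest errors. It read 282, 442, 304 and 664 in Scx+ and 1376, 8563, 2788 and 1721 in Scx-, with no overlap, a log2 difference of 2.78 ± 0.73 (limma adjusted p = 0.11). Mx2 (2.40 ± 0.77), Oasl2 (1.65 ± 0.39) and Oas2 (1.48 ± 0.42) likewise did not overlap between genotypes and did not pass. Oas3 (1.88 ± 0.53) and Eif2ak2, the kinase PKR (0.77 ± 0.29), overlapped between genotypes. Rsad2, or viperin, read 694, 2547, 2079.5 and 1259 in Scx+ and 1844, 11594, 2944 and 946 in Scx-. Only replicate 2 and replicate 3 of Scx- exceeded all Scx+ libraries, and the log2 difference was 0.92 ± 0.73 (limma adjusted p = 0.865).

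Of the RNA sensors, Ifih1 (MDA5, a sensor of long double-stranded RNA) and Dhx58 (LGP2, its regulator) were higher. Dhx58 read 339, 409, 478 and 747 in Scx+ and 949, 2509, 1743 and 1322 in Scx-, with no overlap, a log2 difference of 1.69 ± 0.32 (limma adjusted p = 0.0148). Ifih1 differed by 1.56 ± 0.31 (limma adjusted p = 0.0188), although its lowest Scx- library (replicate 1, 1314) lay under its highest Scx+ library (replicate 4, 1351). Ddx58, which encodes RIG-I, differed by 0.85 ± 0.27 and did not pass (limma adjusted p = 0.246).

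In the ISG15 system 4 of 6 genes were higher. Isg15, the ubiquitin-like modifier itself, read 308, 648, 746 and 1115 in Scx+ and 1154, 4573, 3465 and 1549 in Scx-. The gap between the genotypes was narrow, 1115 against 1154, and the log2 difference was 1.85 ± 0.41 (limma adjusted p = 0.0441). Usp18, which removes ISG15 and damps the receptor, read 201, 303, 311 and 671 in Scx+ and 1007, 3757, 2192 and 1306 in Scx-, without overlap and with a log2 difference of 2.43 ± 0.41 (limma adjusted p = 0.00733). The ubiquitin ligases Trim30a (1.45 ± 0.29) and Dtx3l (1.12 ± 0.22) were higher. Herc6, the ISG15 ligase of mice (1.27 ± 0.43), and Trim25, the ligase that activates RIG-I (0.84 ± 0.22), did not pass.

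Neither PARP gene passed: Parp9, the partner of DTX3L, differed by 0.97 ± 0.23 (limma adjusted p = 0.0556) and Parp14 by 1.13 ± 0.31 (limma adjusted p = 0.127). Of the Schlafen genes, Slfn1 was higher. It read 211, 217, 191 and 314 in Scx+ and 724, 2766, 1182 and 1184 in Scx-, a log2 difference of 2.49 ± 0.46 (limma adjusted p = 0.0118). Slfn5 (0.92 ± 0.27) and Slfn8 (1.46 ± 0.45) did not overlap between genotypes and did not pass. Of the other 5 genes, Xaf1, a proapoptotic protein (1.56 ± 0.26), Rtp4 (1.59 ± 0.30), Ifi35 (1.02 ± 0.21) and Stat2, the signal transducer (1.09 ± 0.25), were higher. For Ifi35 the lowest Scx- library (927) lay under the highest Scx+ library (959). Ifi27l2a differed by 1.67 ± 0.50 and did not pass (limma adjusted p = 0.215).

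**Figure D2:**
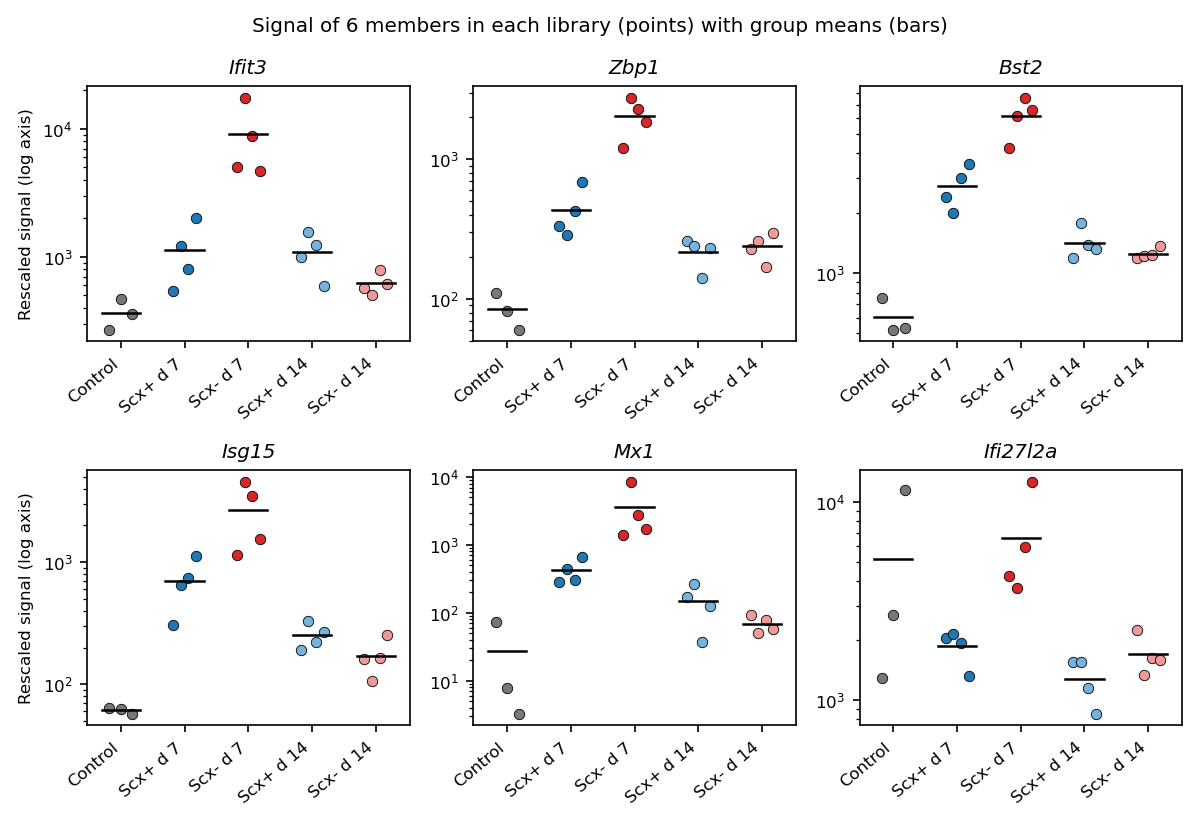
Rescaled signal (log axis) of 6 of the genes in every library, with a bar at each group mean. Scx- libraries at day 7 lie above all Scx+ libraries at day 7 in each panel, and Ifi27l2a has 1 control library (11529) near the highest Scx- day 7 library (12697).

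The count of 21 rested on spread shared over all 5 groups and on several libraries. It was 3 when only the day 7 groups were fitted, 13 with the mean of macrophage markers as a covariate and 7 with that of muscle markers; leaving out 1 library at a time it was 6 (without Scx+ replicate 1), 8 (Scx+ replicate 2), 12 (Scx+ replicate 3), 8 (Scx- replicate 2), 9 (Scx- replicate 3) and 17 to 24 otherwise. Zbp1 passed under all 21 alternatives tried, and all 36 differences stayed above 0 in each of the 3 reduced fits named first.

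Marker genes of other cells also differed between the day 7 groups. All 15 macrophage and monocyte markers had a positive log2 difference (median 0.52) and 0 of 15 passed; their summed signal was 3144 to 4853 ppm in Scx+ and 4209 to 10035 in Scx-, with overlap. All 22 muscle markers were positive (median 2.16) and 0 passed, at 358 to 22555 ppm in Scx+ and 3910 to 64817 in Scx-. Of the T and NK cell markers 1 of 9 was higher, Gzma, where 0.433% of all tested genes were. The summed T and NK cell list reached 20.5 ppm in Scx+ and started from 16.9 ppm in Scx-, with overlap. None of 7 plasmacytoid dendritic cell markers passed, and Siglech, which defines these cells, read 24.0, 33.2, 7.94 and 7.23 in Scx+ and 52.0, 29.3, 10.2 and 68.0 in Scx-. In the other direction 7 of 10 erythroid markers were lower (8412 to 37494 ppm in Scx+, 8.99 to 380 in Scx-), as were 4 of 12 tendon markers. The tendon list includes Scx, the deleted gene itself. Of all tested genes 0.337% were lower. None of 5 neutrophil, 7 conventional dendritic, 6 B and plasma cell, 8 endothelial and 8 adipocyte markers passed. The neutrophil marker Ngp was listed at 0 in all Scx+ libraries of day 7 and the globin gene Hbb-bs in all Scx- libraries; no other marker of these lists was at 0 throughout a day 7 group. The part of these shifts in the interferon-induced genes was tested only through the macrophage and muscle covariates.

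**Figure D3:**
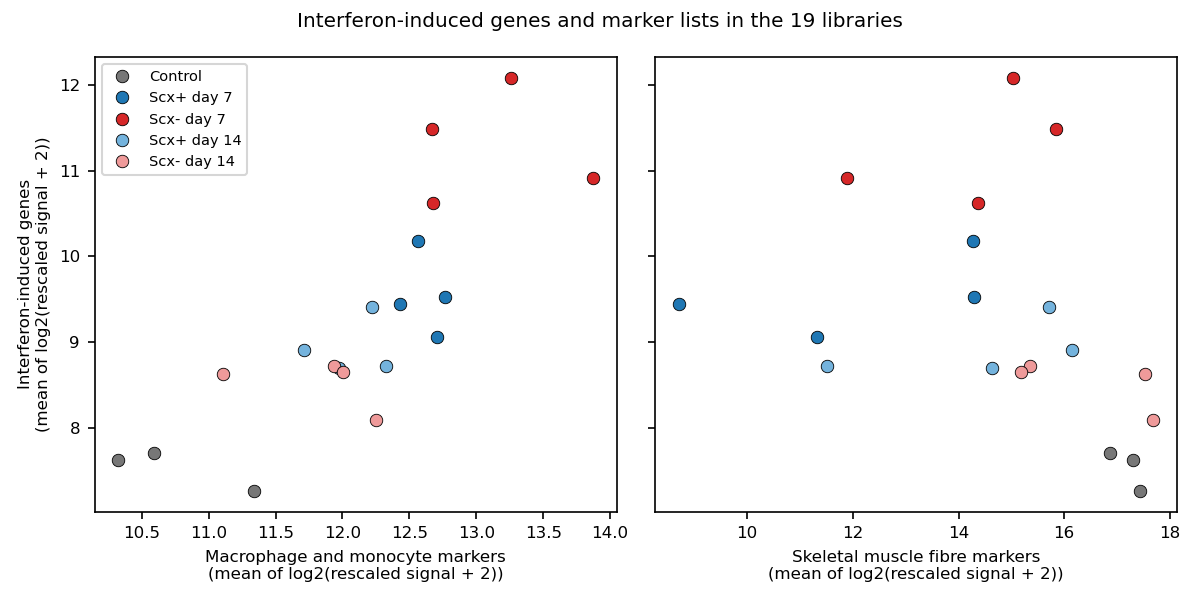
Mean log2(rescaled signal + 2) of the 36 genes (vertical axis) against that of macrophage markers (left) and muscle markers (right), 1 point per library, coloured by group. At day 7 the 4 Scx+ libraries sit at 9.06 to 10.2, with macrophage marker means of 12.4 to 12.8. The Scx- libraries sit at 10.6, 12.1, 11.5 and 10.9, with macrophage marker means of 12.7, 13.3, 12.7 and 13.9 (replicates 1 to 4), of which 2 are above every Scx+ library.

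At day 14 the difference between genotypes was not detected. Of the 36 genes 0 passed in limma, where 0.517% of tested genes passed in either direction, and 1 had an unadjusted p under 0.05 (14.6% of tested genes did). In the authors' deposited table none of the 36 passed, where 0.382% of its genes were higher and 0.727% lower. The log2 difference was negative for 33 of the 36, with a median of -0.36 against 0.015 over all tested genes. Ifit3 read 996, 1559, 1234 and 588 in Scx+ and 574, 506, 783 and 610.4 in Scx-, a log2 difference of -0.75 ± 0.42 (limma adjusted p = 0.406). Zbp1 read 258, 238, 141 and 232 in Scx+ and 228, 262, 169 and 299 in Scx-, nearly level at 0.14 ± 0.31. Stat2 had the smallest p, with a log2 difference of -0.58 ± 0.25 (limma adjusted p = 0.303). Rsad2 was the single gene whose genotypes did not overlap, with 276, 319, 327 and 572 in Scx+ and 205, 31.7, 263 and 259 in Scx- (-1.28 ± 0.73, limma adjusted p = 0.412); 2.94% of tested genes lay wholly lower in Scx-. Without rescaling the Scx- day 14 libraries shifted as a whole: the median over all tested genes became -0.22 and that of the 36 genes became -0.60.

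**Figure D4:**
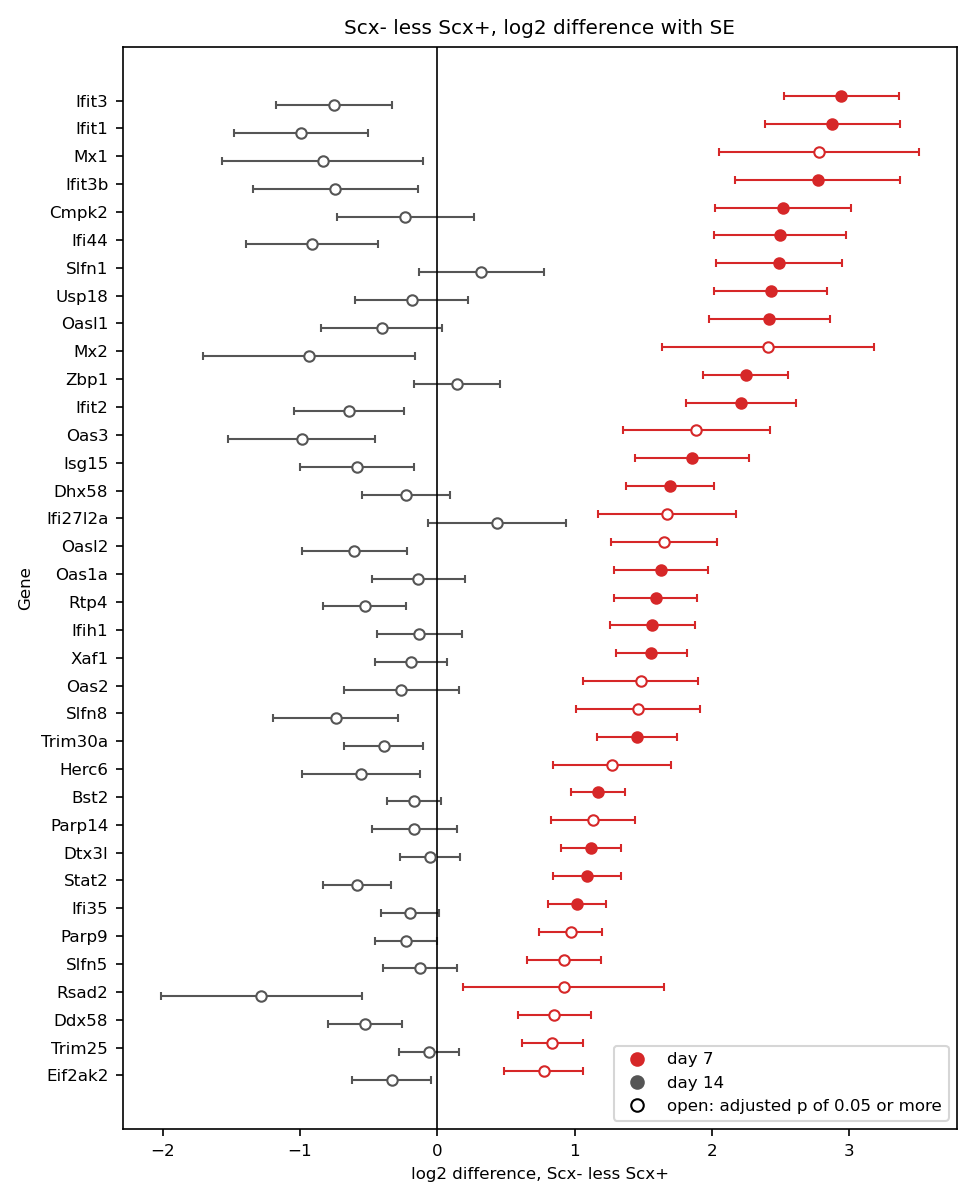
Log2 difference between Scx- and Scx+ with its SE for the 36 genes, at day 7 (red) and day 14 (grey), ordered by the day 7 value. Filled points passed an adjusted p of 0.05; all day 7 points lie above 0 and 33 of 36 day 14 points lie below it.

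The change of the genotype difference from day 7 to day 14 was tested as an interaction. It was negative for all 36 genes, with a median of -2.01 (0.0067 over all tested genes). Only Ifit3 passed, at -3.69 ± 0.60 (limma adjusted p = 0.0495), where 0.012% of tested genes, 2 in all, passed as lower. An unadjusted p under 0.05 was reached by 35 of the 36 genes and by 4.34% of tested genes. The next genes by p were Ifit1 at -3.87 ± 0.69 and Ifi44 at -3.41 ± 0.68, which did not pass (limma adjusted p = 0.122 and 0.172). The call on Ifit3 was near the threshold: it ended under 19 of 30 alternatives, with adjusted p from 0.0115 to 0.259 and differences from -4.02 to -3.30, and without Scx- day 7 replicate 1 the count of genes passing rose to 14.

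In Scx- tendon every one of the 36 genes was lower at day 14 than at day 7. All 36 passed in limma, where 3.86% of tested genes were lower, and for all 36 every day 14 library lay below every day 7 library, which held for 8.37% of tested genes. The median log2 difference was -2.77 (0.016 over all tested genes). These comparisons share the 4 Scx- day 7 libraries with the genotype comparison at day 7. The authors' deposited table likewise gave 36 of 36 as lower, where 5.86% of its genes were.

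Among the effectors the fall was largest for Mx1, which went from 1376, 8563, 2788 and 1721 at day 7 to 92.4, 49.4, 77.9 and 56.5 at day 14. The log2 difference was -5.31 ± 0.73, or 39.8-fold (limma adjusted p = 0.000452). Oas3 went from 626, 3135, 1877 and 892 to 76.1, 24.9, 39.0 and 72.9 (-4.74 ± 0.53, limma adjusted p = 0.000119), and Rsad2 fell by 4.23 ± 0.73. Bst2, with the smallest p, went from 4282, 6141, 7625 and 6639 to 1192, 1224, 1232 and 1367, where the day 14 libraries were close together (-2.27 ± 0.20, 4.82-fold, limma adjusted p = 6.31e-06). Ifit3 went from 4686 to 17546 at day 7 to 506 to 783 at day 14 (-3.67 ± 0.42), and Zbp1 from 1206 to 2771 down to 169 to 299 (-3.04 ± 0.31). In the ISG15 system Isg15 went from 1154, 4573, 3465 and 1549 to 162, 105, 164 and 255 (-3.80 ± 0.41, limma adjusted p = 0.000112). Slfn1 fell by 4.12 ± 0.46, Dhx58 by 2.64 ± 0.32 and Stat2 by 1.84 ± 0.25 on the log2 scale. The smallest differences were in Ifi35 (-1.02 ± 0.21), Trim25 (-1.15 ± 0.22) and Slfn5 (-1.19 ± 0.27), and the weakest call was Ifi27l2a (-1.80 ± 0.50, limma adjusted p = 0.0469), which was lost when any 1 of the 8 libraries was left out. Some markers of immune cells were lower in Scx- at day 14 as well, beside 3.86% of all tested genes. Of the macrophage markers 10 of 15 passed as lower, from 4209 to 10035 ppm down to 1202 to 3306, and of the T and NK cell markers 3 of 9 (Gzma, Ncr1 and Nkg7), from at least 16.9 ppm in every day 7 library to at most 7.62 ppm in every day 14 library. Neither summed list overlapped between the days. Of the tested neutrophil and plasmacytoid dendritic cell markers 1 of 5 (Csf3r) and 1 of 7 (Lair1) were lower, and none of the other marker lists had a gene that passed. Muscle markers still took 3910 to 64817 ppm at day 7 and 44847 to 195972 ppm at day 14, with overlap. Their mean log2 level in Scx- day 14 replicates 1 and 2 (17.5 and 17.7) lay above every control library (at most 17.4). The count of genes without both of these libraries is given below, with the dependence on processing. The summed plasmacytoid list was not lower, at 113 to 184 ppm at day 7 and 163 to 459 at day 14. It was highest in the muscle-rich controls (475 to 525 ppm), so this sum cannot be read as the amount of these cells. With the mean of macrophage markers as a covariate 13 of the 36 genes passed, and the median difference was -2.90; the part of the other immune markers was not tested.

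In Scx+ tendon no fall from day 7 to day 14 passed in limma, but 8 of the 36 genes passed as lower in the authors' deposited table. Of the 36 genes 0 passed in limma, where 0.0301% of tested genes did, and 11 had an unadjusted p under 0.05 (10.6% of tested genes). The median log2 difference was -0.45, with 32 of 36 negative. Bst2 had the smallest p, with 2428, 2013, 3009 and 3539.6 at day 7 and 1197, 1789, 1382 and 1329.6 at day 14, a log2 difference of -0.93 ± 0.20 (limma adjusted p = 0.0832). In 7 genes, Bst2, Slfn1, Oas3, Zbp1, Rsad2, Mx1 and Slfn8, every day 14 library lay below every day 7 library, as for 6.11% of tested genes. The Ifit genes hardly differed: Ifit3 by 0.03 ± 0.42, Ifit1 by -0.11 ± 0.49, Ifit2 by 0.08 ± 0.40 and Ifit3b by 0.05 ± 0.60. The authors' deposited table gave 8 of 36 as lower, where 3.08% of its genes were. These were Slfn1, Rsad2, Bst2, Isg15, Oas3, Slfn8, Mx1 and Oas1a. Sample quality weights raised the limma count to 7. The interaction above is also the test of whether the fall differed between genotypes, since both are the same contrast.

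**Figure D5:**
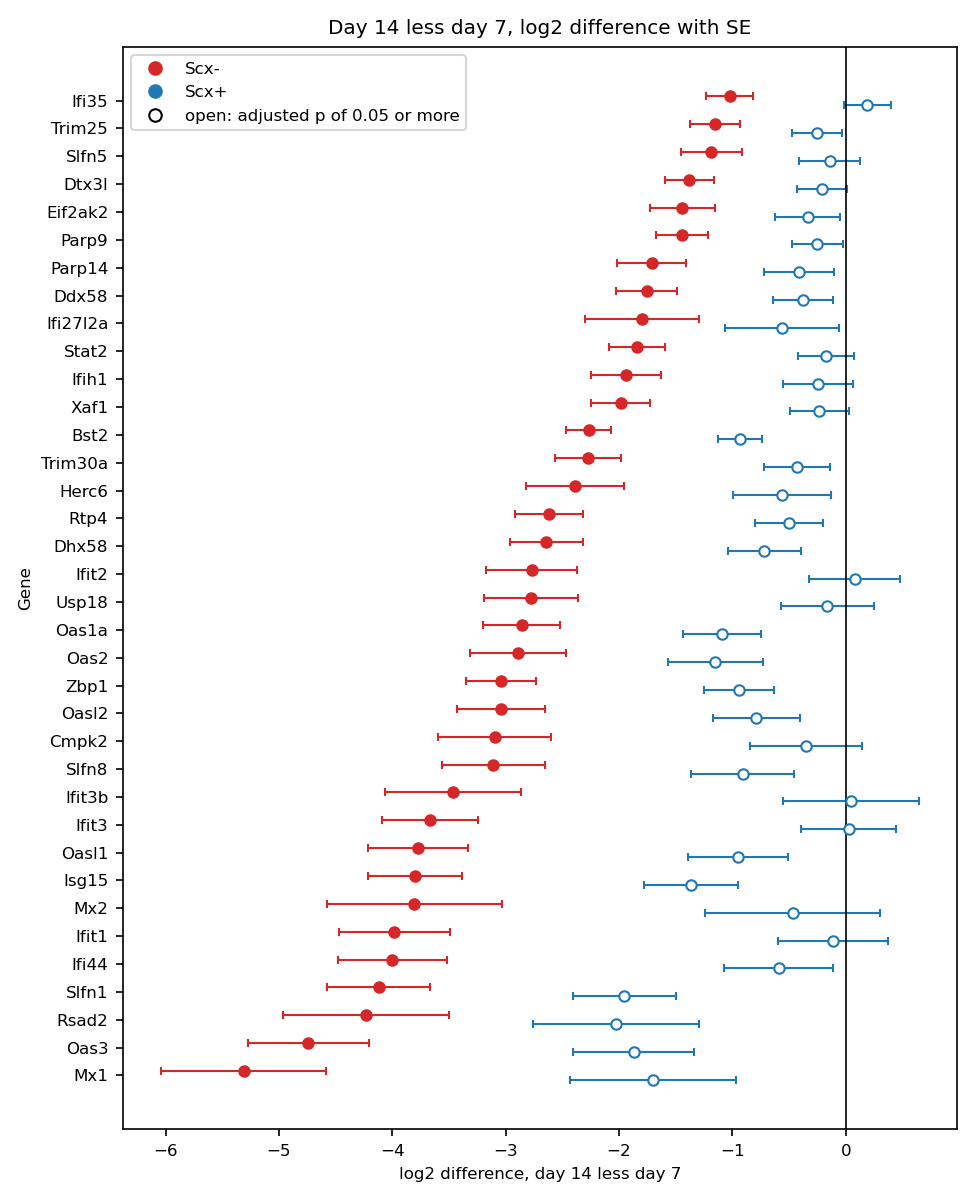
Log2 difference between day 14 and day 7 with its SE for the 36 genes in Scx- (red) and Scx+ (blue), ordered by the Scx- value. All 36 Scx- points are filled (adjusted p under 0.05) and left of 0, and no Scx+ point passed.

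Against the unstimulated controls, 16 to 34 of the interferon-induced genes were higher in each stimulated group, where many genes overall were higher too. The 4 comparisons share the same 3 control libraries. Tamoxifen, the stimulus and the tissue content of the samples cannot be told apart. Muscle markers took 25.6% to 30.8% of the signal in the controls and 0.0358% to 19.6% in the stimulated groups. In Scx+ at day 7, 29 of 36 were higher and 0 lower, with 33.8% of tested genes higher, and the median log2 difference was 1.82. In Scx- at day 7, 34 were higher and 0 lower (32.3% of tested genes higher), with a median of 3.51. In Scx+ at day 14, 25 were higher and Ifi27l2a was lower (30.9% of tested genes higher), with a median of 1.30, and in Scx- at day 14, 16 were higher and 0 lower (25.5%), with a median of 0.90. Scaled by library totals, the median over all tested genes rose to 0.58 to 0.83 in these 4 comparisons and the Scx- day 14 count rose to 26. On the deposited scale that comparison had 11 higher and 2 lower, Ifi27l2a and Ifi35. Macrophage markers took 447 to 1039 ppm in controls and 1202 or more in all other libraries, and T and NK cell markers 0.618 to 2.18 ppm and 2.99 or more.

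Slfn1 and Oas3 had the largest differences from control at every stage. Slfn1 read 3.28, 6.14 and 0 in the controls and Oas3 1.77, 2.23 and 1.55, so their fitted differences depend on the constant 2 added before the log. Slfn1 was 5.71 ± 0.49 above control in Scx+ and 8.20 ± 0.49 in Scx- at day 7, and 3.76 ± 0.49 and 4.08 ± 0.49 at day 14. Bst2, at 756, 521 and 529.5 in the controls, was 2.18 ± 0.21 and 3.34 ± 0.21 above them at day 7 and 1.25 ± 0.21 and 1.08 ± 0.21 at day 14. Isg15, at 64.4, 62.7 and 57.2 in the controls, was 3.34 ± 0.45 and 5.19 ± 0.45 above them at day 7, and 1.97 ± 0.45 and 1.39 ± 0.45 at day 14. Ifit3 was above control by 1.53 ± 0.45 in Scx+ at day 14 (limma adjusted p = 0.00882) and by 0.78 ± 0.45 in Scx- at day 14 (limma adjusted p = 0.175). Ifi35 and Ifi27l2a did not pass as higher in any of the 4 comparisons. Ifi27l2a read 1289, 2675 and 11529 in the controls, with replicate 3 far above the other libraries of its group.

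Within the stimulated groups 1 library was often the highest or the lowest for most of the genes. Among the Scx- day 7 libraries replicate 2 held the highest value for 33 of the 36 genes and replicate 1 the lowest for 24. Among the Scx+ day 7 libraries replicate 4 was highest for 34 and replicate 1 lowest for 27. At day 14 Scx+ replicate 2 was highest for 28 genes and Scx- replicate 2 lowest for 27. The controls did not show this: replicates 1, 2 and 3 were highest for 15, 14 and 7 genes and lowest for 12, 9 and 15. With group means subtracted, each gene's Pearson r with the mean of the other 35 over the 19 libraries ran from 0.53 (Slfn1) to 0.91 (Isg15), except Ifi27l2a at -0.37. These are descriptions over libraries that share sample and scale. Ifi27l2a, unlike the rest, was highest among the Scx- day 7 libraries in replicate 4, with 4228, 3661, 5899 and 12697.

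Genes upstream of these were looked at in the same fit. Interferon genes were at the edge of detection: of 21 listed, 14 were at 0 in all 19 libraries and none passed the filter on low values. Ifna1 was listed at 0 in every library, and Ifna11 in all but 1 library each of Scx+ at day 7 (0.68) and Scx+ at day 14 (0.89). Ifnb1, which encodes interferon beta, read 0, 0.54, 0 and 0 in Scx+ and 8.13, 3.66, 4.29 and 0 in Scx- at day 7. Ifng, the type II interferon, read 2.86, 3.23, 1.78 and 4.09 in Scx+ and 1.77, 4.99, 14.5 and 0 in Scx-. Ifnb1 and Ifng were chosen after their values were seen. The summed signal of the 21 interferon genes overlapped between genotypes at day 7, at 2.86 to 10.2 in Scx+ and 0 to 20.9 in Scx-. Of 15 receptors and signal transducers 0 passed at day 7 (median 0.12, and 0.77% of tested genes passed in either direction). Irf9, the DNA-binding part of ISGF3, differed by 0.68 ± 0.20 (limma adjusted p = 0.166).

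Of 21 nucleic acid sensors, adaptors and kinases, Irf7 and Samhd1 were higher in Scx- at day 7 and 0 were lower. Of all tested genes 0.433% were higher. Irf7, the transcription factor that amplifies interferon production and is itself interferon-induced, read 1579, 1484, 2245 and 2711 in Scx+ and 6539, 13894, 11132 and 9470.3 in Scx-. Its log2 difference was 2.35 ± 0.27 at day 7 (limma adjusted p = 0.000442) and -0.21 ± 0.27 at day 14 (limma adjusted p = 0.733), and its interaction passed at -2.56 ± 0.38 (limma adjusted p = 0.0238). Samhd1, an enzyme that depletes nucleotides, differed by 0.80 ± 0.16 at day 7 (limma adjusted p = 0.0197). Of 47 other interferon-induced genes 45 were tested, and 12 were higher and 0 lower at day 7 with a median of 1.17, again beside 0.433% of tested genes higher. Their leading genes were Lgals3bp (1.12 ± 0.16), Ifi204 (1.51 ± 0.27), Phf11d (2.02 ± 0.36) and Ifitm3 (0.83 ± 0.16). In Scx- tendon 36 of the 45 were lower at day 14 than at day 7, where 3.86% of tested genes were. Between genotypes at day 14, 0 of 45 differed, where 0.517% of tested genes did. The response element core was in 21 of the 40 promoters of these genes (52.5%).

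In the GENCODE M21 annotation of GRCm38 the 36 genes lie on 13 chromosomes, with 7 on chromosome 11, 6 on chromosome 16, 5 on chromosome 5 and 4 on chromosome 19. The 4 Ifit genes sit side by side on the plus strand of chromosome 19, from Ifit2 (34550694 to 34576419) through Ifit3 (34583531 to 34588731) and Ifit3b (34607970 to 34613401) to Ifit1 (34640871 to 34650009). Cmpk2 and Rsad2 lie head to head on chromosome 12 with 12751 bases between them. Mx1 and Mx2 lie head to head on chromosome 16, 72400 bases apart. Parp9 and Dtx3l overlap head to head by 682 bases, with 458 exonic bases in common on opposite strands. Whether the counting used strand is not given in the sources used here, so reads in that stretch cannot be told apart, nor those where 16.8% of the exonic bases of Ifi35 and 8.84% of those of Slfn5 overlap antisense genes. Herc6 (13.7%) and Rtp4 (13.9%) share exonic bases with a transcript on the same strand.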

How the data were processed

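Total RNA of plantaris tendon was sequenced in 19 libraries. The submitters' processing notes name FastQC, STAR, DESeq2 and the build mm10, with no version or role. The authors deposited a table of scaled signals per gene and library and a table of comparisons with log2 fold changes and adjusted p-values; how they counted reads is not given in the sources used here. The signals are not whole numbers, and 36.8% to 67.6% of low values lay within 0.1 of a multiple of the library's step, so reads could not be recovered, the depth is unknown and no counting interval is given.

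Signals were rescaled by medians of ratios (factors 0.844 to 1.1). Genes with at least 10 in at least 3 libraries were kept, 16619 of 24972. limma 3.58.1 in R 4.3.3 (trend and robust moderation) was fitted to log2(rescaled signal + 2) with all 5 groups and 9 contrasts, with Benjamini-Hochberg adjustment over all tested genes and a threshold of 0.05. A fold change on this scale understates that of low genes. The scripts were tested on simulated data. Alternatives were other scalings, constants of 0.5 and 16, other filters, no robust moderation, sample quality weights, a replicate block, only the groups compared, marker covariates, and leaving out each library or both muscle-rich Scx- day 14 libraries. 0 columns of samples were left unused.

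The members, the pathway lists and the marker lists were chosen with earlier results of these data known. Named are all members, Scx, from each pathway list up to 4 genes with the smallest p at day 7, the 10 other genes most like the members' mean, and from an untested list the first 2 genes by alphabet. Ifnb1, Ifng, Siglech, Gzma, Ncr1, Nkg7, Csf3r, Lair1, Ngp and Hbb-bs were chosen after their values were seen. A gene that the rule names is not reported here. Promoters printed are those of up to 6 members with the response element core, taken by smallest p at day 7; Ifih1 was passed over because its core lies after the start. Promoters were not found by symbol for 10 members.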

Additional observations from a re-analysis of the deposited data

Results flagged for a closer look

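In the Scx+ group at day 7, replicate 4 stood apart from its group for 2 genes. Ddx58 read 3007.7 there, where the next library read 1849 and the lowest 1722, and Slfn8 read 903.36 there, with 534 next and 498 lowest. Dixon's test at 95% was applied to 144 groups of 4 libraries and marked these 2, where chance would mark about 7.2. The same library held the highest value of its group for 34 of the 36 genes, and leaving it out raised the number of genes higher in Scx- at day 7 from 21 to 24.

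The genotype difference of Ifit3 differed between the days. The interaction, day 14 less day 7, was -3.69 on the log2 scale (limma adjusted p = 0.0495), and it was negative for all 36 genes. The call was near the threshold and ended under most alternatives, as given above. The count of genes passing ran from 0 to 14 when single libraries were left out.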

How the results depend on the processing

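No called difference changed sign under the alternatives run. For Scx- against Scx+ at day 7 (21 genes) the count was 3 with only the groups of the comparison, 7 with muscle markers and 13 with macrophage markers as a covariate, and 6 to 24 when 1 library was left out; sample quality weights gave 30. For the same comparison at day 14 it was 0 throughout. For the interaction (1 gene) it was 0 with a constant of 0.5, with no filter, with sample quality weights, with only the groups compared, with macrophage markers and without both muscle-rich Scx- day 14 libraries, and 0 to 14 when 1 library was left out (14 without Scx- day 7 replicate 1, 2 without Scx+ day 7 replicate 4). For Scx+ day 14 against day 7 (0 genes) it was 1 on the deposited scale, 7 with sample quality weights, 1 with muscle markers, and 0 for each library left out. For Scx- day 14 against day 7 (36 genes) it was 13 with macrophage markers, 30 without both muscle-rich libraries and 34 to 35 when 1 library was left out. Against control, Scx+ day 7 (29) gave 26 to 30 and Scx- day 7 (34) gave 34 to 35 when 1 library was left out. Scx+ day 14 (25) gave 16 with macrophage markers and 20 to 25 when 1 library was left out. Scx- day 14 (16) gave 26 by library totals, 10 with sample quality weights, 9 with macrophage markers and 12 to 18 when 1 library was left out. The cause of these shifts was not tested.

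Replicate numbers are shared between groups, but same-numbered libraries did not deviate together (36 pairs of libraries, r from -0.43 to 0.35, median -0.0018), so they were not treated as pairs. With the replicate number as a block the count was 19 at day 7, 0 at day 14, 0 for the interaction, 0 for Scx+ and 35 for Scx- between days, and 28, 34, 23 and 15 in the 4 comparisons with control (Scx+ day 7, Scx- day 7, Scx+ day 14, Scx- day 14). The depth behind each value is unknown, and precision is limited by 3 or 4 libraries a group.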

Other observations

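Outside the 36 genes, the 10 genes most like their mean, by Pearson r over the 19 libraries with group means subtracted and among 13714 genes with a mean of at least 50, were Rnf213 (r = 0.92), Ifi203, Trim34a, Phf11d, Gbp3, Ifi47, Mndal, Iigp1, Gbp7 and Nlrc5 (r = 0.85). These values describe the libraries, which share sample and scale. The guanylate-binding protein Gbp3, a GTPase of cell-autonomous defence, was higher in Scx- at day 7 by 1.71 on the log2 scale (limma adjusted p = 0.00995), and its relatives Ifi47 and Iigp1, immunity-related GTPases, by 1.74 and 2.14 (limma adjusted p = 0.0158 and 0.0188). Phf11d and Mndal were higher by 2.02 and 1.30, and Rnf213, Ifi203, Trim34a, Gbp7 and Nlrc5, the activator of MHC class I genes, differed by 1.02 to 1.39 and did not pass. At day 14 the 10 differences ran from -0.42 to 0.18 and none passed.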
